A study of Zea mays with 2 samples.

Results

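Narrow peaks with very high score are short stretches of the maize genome with very low p-values for an excess of DNA recovered as methylated. They were taken from 2 lists of methylation peaks, 1 from embryo and 1 from endosperm of the inbred line B73, both collected from ears 14 days after self-pollination. The methylated DNA was pulled down with an antibody against 5-methylcytidine (MeDIP-seq) and sequenced, and the peaks were called by the authors in each library with MACS. The narrow strong peaks were selected on their score, of at least 500, and their length, below 1000 bp, on chromosomes 1 to 10. The score is minus 10 times the log10 of the p-value that MACS gives to the peak. This rule found 2426 peaks in embryo and 257 in endosperm, in all 2683 of the 469093 peaks of the deposited lists. They are 0.690% of the 351748 embryo peaks and 0.224% of the 114577 endosperm peaks on these chromosomes.

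In plants, cytosines are methylated in CG, CHG and CHH contexts, and most of this methylation lies in transposable elements and other repeats, where it keeps them silent. The endosperm is the triploid nourishing tissue of the seed, and in plants its DNA is known to be less methylated than that of the embryo. DNA glycosylases of the DEMETER family, which remove methylated cytosines, act in the central cell from which the endosperm arises. A MeDIP peak gives no state of single cytosines, only where fragments pulled down by the antibody were recovered in excess.

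There was 1 library per tissue and no input library is named, so no test between the tissues can be made. Nor could a score be set against the DNA before the pull-down at the same place. The number of ears or seeds behind each library is not given in the sources used here. The deposited lists hold positions and scores without read numbers, and read numbers from elsewhere in the study were not used here. Scores were therefore ranked only within a list, and the 95% Wilson intervals given cover counting error alone. The tissue labels could not be checked, since a list of methylation peaks holds no marker of a tissue. The genome build is not given in the sources used here, and positions are printed 1-based, with 1 added to the deposited start. The length is the deposited end minus the deposited start.

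The score and the length chose these peaks, so both are given only as a description. Scores ran from 500.02 to 3100 in embryo, with a median of 611, and from 500.15 to 3100 in endosperm, with a median of 667. Scores of 3100 or above were held by 17 embryo and 13 endosperm peaks of any length, among which 5 narrow strong peaks of embryo and 1 of endosperm had 3100. A score of 500 lay above 99.2% of the embryo peaks and 99.5% of the endosperm peaks, so the same score marked a slightly higher rank in endosperm. Just inside the limit were embryo peaks with scores of 500.02 and 500.13 and endosperm peaks with 500.15 and 500.26. Just outside it were embryo peaks with 499.98 and 499.97 and endosperm peaks with 499.98 and 499.58. The longest narrow strong peak had 998 bp in both libraries, and the shortest peak left out for its length had 1000 bp in both.

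Narrow peaks made up 2426 of the 2912 embryo peaks with a score of at least 500 (83.3%, 95% interval 81.9 to 84.6), against 257 of the 573 such endosperm peaks (44.9%, 40.8 to 48.9). The strong peaks of 1 kb or longer numbered 486 in embryo and 316 in endosperm. The ratio of embryo to endosperm was therefore 9.44 for narrow strong peaks, 1.54 for broad strong peaks and 3.07 for all peaks of chromosomes 1 to 10. The ratio of narrow strong peaks differed along the range of lengths. It was 1.95 below 300 bp, 7.53 from 300 to 500 bp, 11.6 from 500 to 700 bp and 10.4 from 700 to 1000 bp.

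Narrow strong peaks were long for narrow peaks. The median was 712.5 bp in embryo, and in endosperm it was 671 bp, whereas the other peaks under 1 kb, with a score under 500, had medians of 270 bp in embryo and 211 bp in endosperm. In embryo, 868 of them (35.8%) measured 800 bp or more, and in endosperm 92 (35.8%) did. Of the other narrow peaks, 1.01% in embryo and 0.380% in endosperm were that long. At the short end, 9 narrow strong peaks of embryo and 8 of endosperm had less than 200 bp.

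**Figure D1:**
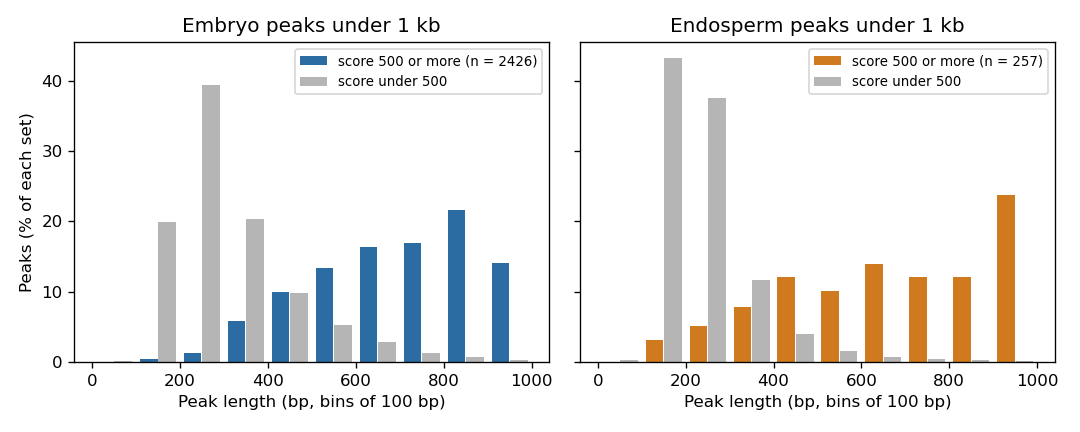
Share of peaks (y axis, % of each set) by length in bins of 100 bp (x axis, bp) for embryo (left) and endosperm (right); coloured bars are narrow peaks with a score of 500 or more and grey bars those with a score under 500. The coloured bars lie mostly above 400 bp, and the highest are 21.6% at 800 to 899 bp in embryo and 23.7% at 900 bp or more in endosperm.

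The shortest ones, under 200 bp, were picked out after their values were known. The shortest of all lay in embryo on chromosome 2 from 13046217 to 13046326 (110 bp, score 696) and overlapped an endosperm peak of 210 bp with a score of 441. The next lay on chromosome 7 from 49288623 to 49288735 (113 bp, score 832), on an endosperm peak of 200 bp with a score of 556. Of the 9 embryo peaks under 200 bp, 6 overlapped a narrow strong peak of endosperm, against 0.0799% of all embryo peaks. The endosperm peak had 200 bp or less in all 6. The shortest of endosperm, on chromosome 5 from 17717422 to 17717557 (136 bp, score 692), lay on an embryo peak of 158 bp with a score of 561. All 41 narrow strong peaks of embryo under 300 bp and all 21 of endosperm overlapped a peak of the other tissue. Of the other narrow peaks, 15.8% of those under 300 bp in embryo and 74.1% of those of any length in endosperm did so.

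Equal lengths recurred in both libraries, and more often in the larger set. In embryo the peaks outnumbered the possible lengths, so most of them had to share one. The 2426 embryo peaks took 689 distinct lengths out of the 889 possible between the shortest and the longest, or 3.52 peaks per length, and 2279 of them (93.9%) shared their length with another. The 257 endosperm peaks took 221 of 863 possible lengths, and 70 (27.2%) shared theirs. The share that the number of peaks alone would give was not computed, so the recurrence cannot be set apart from it. The commonest in embryo were 854 and 915 bp with 12 peaks each, 614 bp with 11, and 645 and 712 bp, which along with 4 further lengths had 10 each. In endosperm the commonest were 791 and 938 bp with 3 peaks each, and 32 lengths had 2 peaks. Peaks of one length were spread over the genome. The 12 embryo peaks of 854 bp lay on 6 chromosomes, and the closest 2 of them were 1409302 bp apart. Those of 915 bp lay on 5 chromosomes. Each of these lengths was held by 0.495% of the narrow strong embryo peaks. Of the other narrow embryo peaks, most of which were shorter, 0.00604% had 854 bp and 0.00316% had 915 bp. Of the 820 embryo peaks with an equally long one on their chromosome, 16 (1.95%) had it within 100 kb.

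Narrow strong peaks were found on all 10 chromosomes. In embryo the largest numbers lay on chromosome 1 (366 peaks, 15.1%, against 14.7% of all embryo peaks) and chromosome 6 (357 peaks, 14.7%, against 8.22%), and the smallest on chromosome 10 (148 peaks). Per 1000 peaks of the chromosome, embryo had 12.3 on chromosome 6 and between 5.63 on chromosome 4 and 7.10 on chromosome 1 on the others. In endosperm, chromosome 6 held 85 of the 257 peaks (33.1%, 27.6 to 39.0) but 8.59% of all endosperm peaks. Per 1000 peaks, endosperm had 8.64 on chromosome 6 and between 1.15 on chromosome 2 and 2.45 on chromosome 9 on the others. Chromosome 6 thus held the largest share per peak in both lists.

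The excess on chromosome 6 lay in a few windows of 1 Mb. The densest 3 windows were the same in both libraries, from 11 to 12 Mb with 55 embryo and 21 endosperm peaks, from 10 to 11 Mb with 50 and 16, and from 12 to 13 Mb with 39 and 13. The next were from 15 to 16 Mb with 21 and 5 and from 20 to 21 Mb with 17 and 8. Anywhere outside 10 to 21 Mb of chromosome 6, a window held at most 8 embryo and 4 endosperm peaks. At least 1 narrow strong peak was present in 1291 of 2064 windows in embryo and in 168 in endosperm. This 10 to 21 Mb stretch, which was delimited with the values in view, held 187 embryo peaks (7.71%, background 0.785% of all embryo peaks) and 67 endosperm peaks (26.1%, background 1.21%). Outside it, chromosome 6 had 6.50 per 1000 peaks in embryo and 2.13 in endosperm, within the range of the other chromosomes. The short arm of maize chromosome 6 is known to carry the nucleolus organizer, a tandem array of ribosomal RNA genes. Whether these peaks lie on it was not tested, since no genome sequence was used here.

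Peaks of this chromosome 6 cluster were longer than the other narrow strong peaks and had higher median scores. They had a median of 874 bp in embryo, and one of 897 bp in endosperm, against 700 bp and 623.5 bp outside the cluster. The median score was 1255 in the cluster and 599 outside it in embryo, and 722 and 649 in endosperm. In embryo, 141 of the 187 (75.4%) had a score of at least 1000, compared with 267 of 2239 (11.9%) outside. In endosperm, 6 of 67 (8.96%) had such a score, compared with 31 of 190 (16.3%) outside. Of the strong peaks of the cluster, 187 were narrow and 5 broad in embryo, whereas 67 were narrow and 86 broad in endosperm. All 187 embryo and all 67 endosperm peaks overlapped a peak of the other tissue. That none was without one allows shares of up to 1.60% and 4.48%. Outside the cluster, 2123 of 2239 (94.8%) in embryo and 189 of 190 (99.5%) in endosperm overlapped one, so the cluster did not stand apart in endosperm. The overlapping endosperm peak was 1 kb or longer for 99 of the 187 embryo peaks (52.9%), against 195 of 2239 (8.71%) outside.

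In the cluster, neighbouring narrow strong peaks of embryo recurred at about 9 kb. Of the 186 distances from the start of one to the start of the next, 39 fell between 8.5 and 9.5 kb, compared with 6 between 7.5 and 8.5 kb and 12 between 9.5 and 10.5 kb. The longest run of such steps joined 4 embryo peaks, with starts at 11852775, 11861831, 11871095 and 11880355 and steps of 9056, 9264 and 9260 bp. These 4 peaks had lengths of 801, 940, 889 and 822 bp and scores of 846, 1454, 1397 and 1258, and the overlapping endosperm peaks had scores of 467, 848, 705 and 678. Strong endosperm peaks of any length also recurred at this distance, in 22 of 152 steps (14.5%), against 8 between 7.5 and 8.5 kb and 5 between 9.5 and 10.5 kb. Among the narrow ones alone it was 5 of 66 steps, the broad peaks between them being left out by the rule. Outside the cluster, 22 of 2229 steps between narrow strong embryo peaks were of 8.5 to 9.5 kb. This was more than the 13 between 7.5 and 8.5 kb and the 11 between 9.5 and 10.5 kb. In bins of 1 kb, embryo steps outside the cluster numbered 17 at 7 to 8 kb and 20 at 8 to 9 kb. They numbered 14 at 9 to 10 kb, 9 at 10 to 11 kb and 15 at 11 to 12 kb. A recurrence at about 9 kb outside the cluster was therefore not shown for embryo. For strong endosperm peaks of any length outside the cluster, 3 steps were of 8.5 to 9.5 kb. There were 7 between 7.5 and 8.5 kb and 6 between 9.5 and 10.5 kb.

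**Figure D2:**
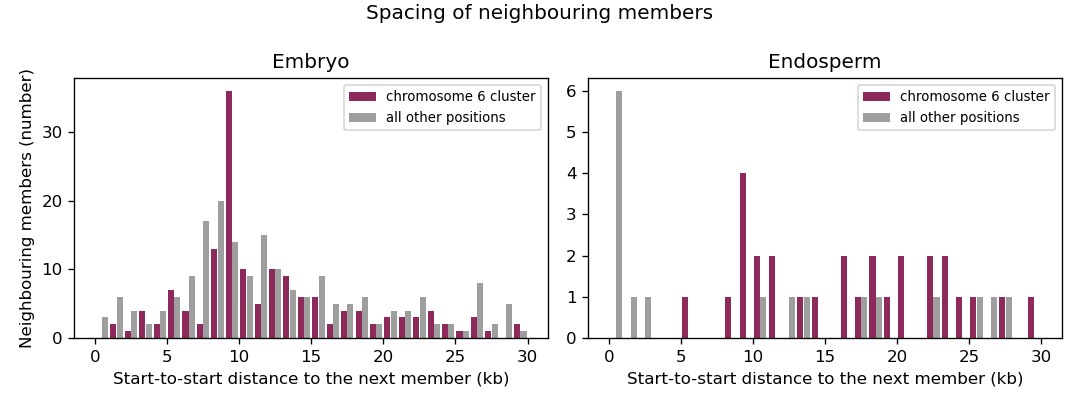
Number of neighbouring narrow strong peaks (y axis) by the distance from start to start (x axis, kb, bins of 1 kb, up to 30 kb), in embryo (left) and endosperm (right), for the cluster on chromosome 6 from 10 to 21 Mb (purple) and for all other positions (grey). The tallest purple bar of embryo, with 36 neighbours, is at 9 to 10 kb, and the tallest grey one, with 20, at 8 to 9 kb.

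Outside the cluster, narrow strong peaks were mostly far apart. The nearest other one lay at a median of 260055 bp in embryo and 2978518 bp in endosperm, and 170 of 2239 (7.59%) in embryo and 15 of 190 (7.89%) in endosperm had another within 10 kb. With the cluster included, these shares were 12.1% and 10.1%. Where embryo peaks did lie close, the distances were mostly of several kb. Of the 159 steps under 20 kb outside the cluster, 17 were of 7 to 8 kb, 20 of 8 to 9 kb, 14 of 9 to 10 kb, 9 of 10 to 11 kb and 15 of 11 to 12 kb, whereas 3 were under 1 kb. Near neighbours differed less in length than distant ones, by a median of 132 bp over all 159 steps under 20 kb. The median difference was 88 bp for the 19 pairs spaced by 4 to 7 kb, 109 bp for the 51 spaced by 7 to 10 kb and 113 bp for the 34 spaced by 10 to 13 kb, and it was 182 bp for neighbours 100 kb or more apart. Pairs under 4 kb and from 13 to 20 kb apart were not summarized on their own, so no steady rise with distance is shown. Scores were not closer in near neighbours, with median differences of 140, 260, 144 and 118 in the same order of spacing. In endosperm 13 steps were under 20 kb outside the cluster, of which 6 were under 1 kb.

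Along the chromosomes, narrow strong embryo peaks outside the cluster lay more towards the ends than embryo peaks as a whole, and in endosperm the share at the ends was near the background. In embryo, with each chromosome cut into 10 equal parts, the outer 4 parts (2 at each end) held 1036 of 2239 (46.3%, 44.2 to 48.3), against 37.7% of all embryo peaks, and the inner 4 parts 741 (33.1%), against 42.1%. Per 1000 embryo peaks there were 7.87 in the outer and 5.04 in the inner parts. In endosperm, the outer parts held 80 of 190 (42.1%, 35.3 to 49.2), an interval that includes the 38.6% of all endosperm peaks, and the inner parts 69 (36.3%), against 41.6%. The corresponding values per 1000 endosperm peaks were 1.83 and 1.47. The endosperm shares did not run evenly towards the ends, being 15.3% in part 1 but 3.68% in part 2 and 8.42% in part 10, where all endosperm peaks had 10.5%, 9.93% and 9.05%.

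**Figure D3:**
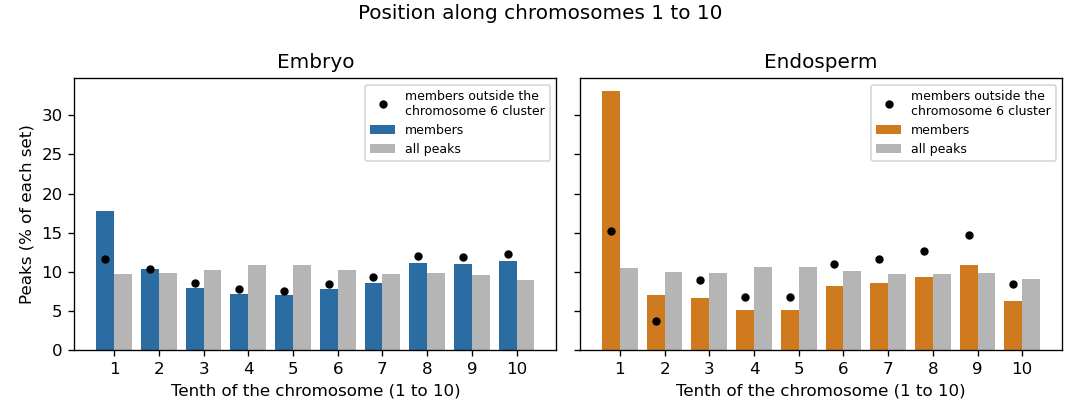
Share of peaks (y axis, % of each set) in each of 10 equal parts of the chromosome (x axis, parts 1 to 10, chromosomes 1 to 10 pooled, with the end of the last peak as the length), in embryo (left) and endosperm (right). Coloured bars are narrow strong peaks, grey bars all peaks and black points narrow strong peaks outside the chromosome 6 cluster. Part 1 holds 17.7% of the embryo and 33.1% of the endosperm narrow strong peaks, and 11.7% and 15.3% with the cluster left out.

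Most narrow strong peaks had a peak at the same place in the other tissue. Of the 2426 in embryo, 2310 (95.2%, 94.3 to 96.0) overlapped an endosperm peak by at least 1 bp, against a background of 23.7% of all embryo peaks. Of the 257 in endosperm, 256 (99.6%, 97.8 to 99.9) overlapped an embryo peak, against a background of 74.3%. A longer peak meets another more easily, and among the other narrow peaks the shares were 51.6% in embryo and 93.3% in endosperm at 700 to 1000 bp. Narrow strong peaks of those lengths overlapped the other tissue in 1215 of 1279 cases in embryo and 123 of 123 in endosperm. Broad strong peaks overlapped the other tissue in 98.8% of cases in embryo and 99.7% in endosperm.

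What differed was the score of the peak on the other side, by the same score limits in both lists. A score of 100 lay above 81.4% of endosperm peaks but 58.6% of embryo peaks, so these classes are not equal in rank. For embryo, 116 narrow strong peaks (4.78%) had no endosperm peak, 342 (14.1%) had one with a score under 100 and 1587 (65.4%) one from 100 to 500. A further 196 (8.08%) lay on a narrow strong endosperm peak and 185 (7.63%) on a broad strong one, where 0.0799% of all embryo peaks overlapped a narrow strong endosperm peak. Together 458 (18.9%, 17.4 to 20.5) had no endosperm peak or one with a score under 100, against a background of 94.1% of all embryo peaks. The share was 48.5% for other narrow embryo peaks with a score from 400 to 500, and 10.9% for broad strong ones. For endosperm, 1 narrow strong peak had no embryo peak, 1 had one with a score under 100 and 44 (17.1%) one from 100 to 500, whereas 196 (76.3%) lay on a narrow strong and 15 (5.84%) on a broad strong embryo peak. Of all endosperm peaks, 2.35% overlapped a narrow strong embryo peak. Having none or one under 100 was thus seen for 2 of 257 (0.778%, 0.214 to 2.79), against a background of 48.3% of all endosperm peaks. Strong peaks were fewer in endosperm, so fewer embryo peaks could meet one. The background for meeting a score of at least 500 was 0.219% of all embryo peaks and 3.06% of all endosperm peaks.

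**Figure D4:**
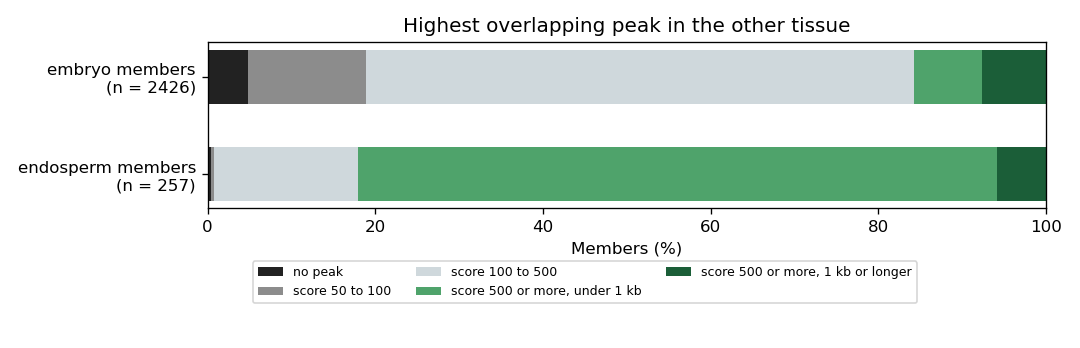
Narrow strong peaks of embryo (upper bar) and of endosperm (lower bar) divided by the highest peak of the other tissue that they overlap (x axis, % of the narrow strong peaks of the library). An overlapping peak with a score from 100 to 500 takes 65.4% of the embryo bar, and a narrow strong one takes 76.3% of the endosperm bar.

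Ranked within its own list, the overlapping endosperm peak stood at a median percentile of 97.6 for embryo peaks, and the overlapping embryo peak at 99.8 for endosperm peaks. The rank of the endosperm peak followed the score of the embryo peak. For embryo scores of 500 to 600 the endosperm peak had a median percentile of 93.7, and 92.6% of the 1134 peaks had one at all. For scores of 1200 or more the median was 99.7 and all 312 peaks had one. By length of the embryo peak, the median percentile was 99.1 under 300 bp, 97.9 at 300 to 500 bp and 95.8 at 500 to 700 bp. It was 98.1 at 700 to 1000 bp, so it did not fall steadily with length.

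**Figure D5:**
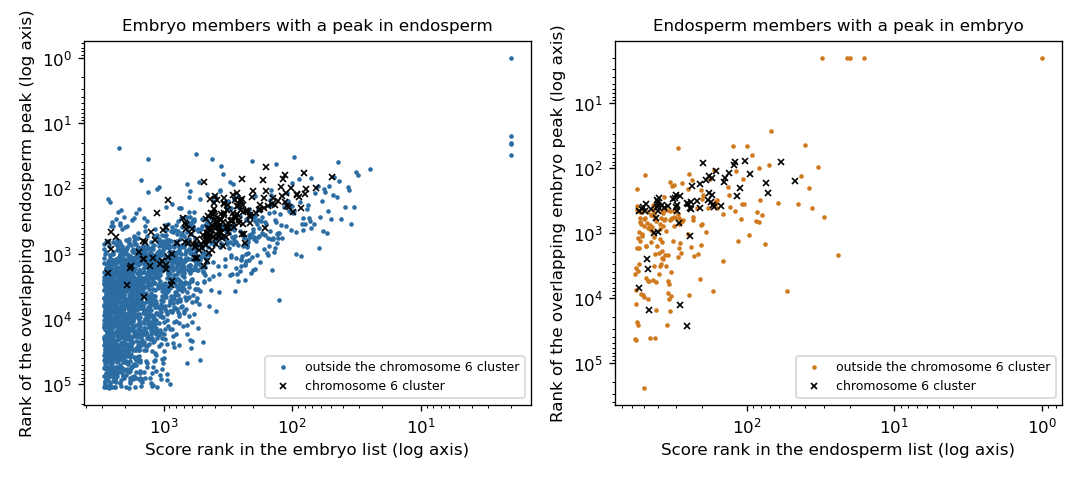
Rank of each narrow strong peak in its own list (x axis, log scale, highest rank at the right) against the rank of the overlapping peak in the list of the other tissue (y axis, log scale, highest rank at the top), for embryo (left) and endosperm (right); crosses mark the chromosome 6 cluster. Under the embryo peaks, endosperm ranks run from 1, at an embryo peak with a score of 3100, to 114121, at one with 573, and close up at the right.

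Among the highest narrow strong peaks, some loci were shared by both tissues. Of the 10 narrow strong embryo peaks with the highest score, 5 overlapped one of the 10 highest in endosperm, and all 10 overlapped an endosperm peak of rank 348 or better. The locus on chromosome 1 from 244854939 to 244855771 (833 bp) had a score of 3100 in embryo and in endosperm, where the peak ran from 244854975 to 244855766. Scores of 3100 are tied at a ceiling, which 1 broad embryo peak alone passed with 3172, so they give no order among themselves. On chromosome 2 the embryo peak from 82582265 to 82582678 had a score of 3100 and the endosperm peak from 82582264 to 82582676 one of 2698, so that their ends were 1 and 2 bp apart. The others shared at the top were on chromosome 1 from 260576704 to 260577311 (embryo 3100, endosperm 2425) and on chromosome 4 from 6261122 to 6261652 (3100 and 2485) and from 12446279 to 12447206 (3100 and 1864). The remaining 5 of the embryo list lay on chromosomes 5, 8, 1, 3 and 2. Their endosperm peaks were all longer than 1 kb, from 1070 bp under the embryo peak on chromosome 5 from 97857384 to 97858264 to 2048 bp under that on chromosome 1 from 213762569 to 213763486.

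The remaining 5 of the 10 highest in endosperm also lay on strong embryo peaks, but of lower rank. The widest gap was on chromosome 1 from 24793685 to 24794299 (615 bp), where the score was 2283 in endosperm, rank 24, on an embryo peak with a score of 543, rank 2230. On chromosome 4 from 225118377 to 225118773 the endosperm rank was 30 and the embryo rank 562. On chromosome 3 from 133602879 to 133603140 (262 bp) they were 38 and 206. The embryo peaks of rank 2230, 562 and 206 stood at the 99.37th, 99.84th and 99.94th percentile of their list.

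Where a narrow strong peak met one of the other tissue and neither met a further peak, the ends of the 2 were mostly close. In many of these pairs, though, at least 1 end lay more than 50 bp off. In the 177 such pairs, 53 of them in the chromosome 6 cluster, the starts differed by a median of 28 bp and the ends by 26 bp, and both ends lay within 50 bp in 95 pairs (53.7%). The embryo peak was the longer one in 94 pairs, the endosperm peak in 82, and 1 pair was equal. Over all narrow strong embryo peaks with an endosperm peak, that peak had a median length of 437 bp, and it was the longer of the 2 in 531 cases (21.9% of all 2426).

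The 116 embryo peaks with no endosperm peak were of low rank for narrow strong peaks. Their median score was 551, against 619 for those with one, at a median length of 714.5 bp and 712 bp. The highest lay on chromosome 10 from 124303938 to 124304807 (870 bp, score 888), 657 bp from the closest endosperm peak. It was followed by a peak on chromosome 1 from 217670134 to 217670925 (score 873), 14814 bp from one, and by a peak on chromosome 2 from 196650599 to 196651364 (score 837), 6594 bp from one. The most isolated of the 10 highest was on chromosome 7 from 5040166 to 5041074 (score 792), with no endosperm peak nearer than 65146 bp. The other six of these 10 lay on chromosome 9 from 145147815, 11071576, 115403489 and 124919760, on chromosome 2 from 177613745 and on chromosome 8 from 85118330, with scores between 674 and 751. Over all 116, the closest endosperm peak lay at a median of 8558.5 bp, and for 52 (44.8%) it was more than 10 kb away. They were spread over all 10 chromosomes, from 2.24% of the narrow strong embryo peaks on chromosome 6 to 6.87% on chromosome 5. The 8 on chromosome 6 were all among its 170 narrow strong embryo peaks outside the cluster. The next lowest share was 3.38%, on chromosome 10. Outside the chromosome 6 cluster, peaks with no endosperm peak were 5.31% of the narrow strong embryo peaks in the outer parts and 5.13% in the inner parts.

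An endosperm score under 100 was more frequent than no endosperm peak. A score of 100 lay above 81.4% of the endosperm list and 58.6% of the embryo list, so this limit stood at a different rank in each. The 342 embryo peaks whose endosperm peak had a score under 100 included 1 on chromosome 3 from 5391671 to 5392573 with an embryo score of 1044, where the endosperm score was 97.95, at the 80.3rd percentile of its list. On chromosome 7 from 100033443 to 100034143 the embryo score was 1007 and the endosperm score 76.22, at the 62.9th percentile of its list. The lowest endosperm rank was on chromosome 1 from 13191955 to 13192828, with an embryo score of 573 over an endosperm score of 50.13, at the 0.368th percentile. The endosperm peaks in these 342 cases were short, with a median of 222 bp under embryo peaks with a median of 702 bp.

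In endosperm only 2 narrow strong peaks were of this kind. The one with no embryo peak lay on chromosome 8 from 146461657 to 146462087 (431 bp, score 574), 1525 bp from the closest embryo peak. The one with a low embryo score lay on chromosome 1 from 184544096 to 184544624 (529 bp, score 539), on an embryo peak of 192 bp with a score of 67.67, at the 29.8th percentile. All other narrow strong endosperm peaks had an embryo peak above the 87th percentile of the embryo list.

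By the median, other peaks of the same library lay about as close to narrow strong as to other narrow peaks in embryo, but closer in endosperm. The median distance to the nearest peak of the library was 1340.5 bp for narrow strong and 1345 bp for other narrow peaks in embryo, and 1294 bp and 5040 bp in endosperm. Another peak lay within 1 kb of 45.3% of the narrow strong and 42.8% of the other narrow peaks in embryo, and of 48.2% and 23.9% in endosperm. The embryo quartiles of the distance were wider apart for narrow strong peaks, at 193 and 4390 bp against 415 and 3149 bp. Broad strong peaks of endosperm also lay close to another peak, at a median of 1639.5 bp and with 38.0% within 1 kb.

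Gene regions could be named for few of the narrow strong peaks, since the gene table at hand covers only the start of chromosome 1. The table was shortened, so the peaks it lists are named without a share. In embryo, the peak from 4819494 to 4819980 (score 577) lay in the promoter of GRMZM2G495769 and that from 18636565 to 18637307 (score 507) in the promoter of GRMZM2G541546. The peak from 13300582 to 13301283 (score 608) lay in the promoter of GRMZM2G487269 and the transcriptional termination region (TTR) of GRMZM2G008627. The peak from 14553403 to 14553884 (score 528) lay in an exon, the CDS and the TTR of GRMZM2G091939 and the 3′ UTR of GRMZM2G086123. The endosperm peaks under these 4 had scores of 92.05, 191.4, 87.37 and 95.95. In endosperm, the peak of rank 24 from 24793685 lay in an exon, the promoter and the TTR of GRMZM5G812298 and the CDS of GRMZM5G812168. It also lay in the 5′ UTR of GRMZM2G385390 and the 3′ UTR of GRMZM2G562741. The peak from 34364665 to 34365618 (score 899) lay in the TTR of GRMZM2G358882, on an embryo peak with a score of 1513.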

How the data were processed

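The maize B73 data are 1 MeDIP-seq library of embryo and 1 of endosperm. Reads were cleaned with fastx, mapped with Bowtie2 2.0.5 (version from the submitters' processing notes) and peaks called per library with MACS at a p of at most 1e-05. The deposited score is minus 10 times the log10 of the peak's p-value, as the authors' caller wrote it. An input library and the genome build are not given in the sources used here.

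From the lists, peaks with a score of at least 500 and a length below 1000 bp on chromosomes 1 to 10 were selected, and overlaps (at least 1 bp), spacing, lengths and positions were counted. A low score was one under 100. Ranks were taken within a list. Shares have 95% Wilson intervals. The rule and all comparisons were chosen with earlier results of these data known. Named peaks were the 10 highest in each library, the 10 highest with no peak in the other tissue, the 5 commonest lengths and the 3 densest windows. Others were chosen after their values were seen. Alternatives were other minimum scores, length limits, overlap rules and distances.

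Counts were made in Python 3.11.15 with pandas 2.3.3 and numpy 2.4.6, intervals with scipy 1.17.1 and plots with matplotlib 3.10.9. The code was tested on 1000 simulated peaks and against bedtools 2.31.1, and all 11 checks gave the known number. No sequence is shown, since no genome was used here.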

Additional observations from a re-analysis of the deposited data

Results flagged for a closer look

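The deposited lists also hold peaks outside chromosomes 1 to 10, which the comparisons above did not use. With the same limits of score and length, 62 embryo and 42 endosperm peaks lay on the sequence labelled UNKNOWN.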

How the results depend on the processing

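No paired analysis was possible because each tissue has a single library. Of 96 values under other settings, 41 stayed within the interval of the reported value (counts within 1.5 times) and 55 moved. The settings are given in turn, with the cluster on chromosome 6 left out as a setting chosen after seeing the data.

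At a minimum score of 400, 5363 embryo and 473 endosperm peaks were found, with median lengths of 645 and 618 bp, and 98.7% and 42.1% shared their length. In embryo 87.6% overlapped a peak of the other tissue and 35.1% had none or a low one. A narrow endosperm peak that passed the same minimum of 400 was met by 6.79%. The chromosome with the most held 26.2% of the endosperm peaks. At a minimum of 700, 813 and 103 peaks were left, with median lengths of 835 and 831 bp. Of these 23.1% and 5.83% had another within 10 kb, 99.3% and 100% overlapped the other tissue and 2.95% and 0% (which allows up to 2.91%) had none or a low peak. In embryo 73.6% shared their length and 9.72% met a narrow endosperm peak that passed the same minimum of 700. The chromosome with the most held 24.8% in embryo and 41.7% in endosperm. Fewer peaks pass a higher minimum by construction.

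With a length below 500 bp, 425 and 72 peaks were left, with medians of 414 and 388 bp. Of these 78.8% and 19.4% shared their length, 1.41% and 0% (which allows up to 4.17%) had another within 10 kb and 10.6% and 62.5% met one of the other tissue. In embryo 96.5% overlapped the other tissue and 11.8% had none or a low peak, and in endosperm 18.1% lay on one chromosome. With no limit on length, endosperm had 573 peaks, embryo peaks shared their length in 83.6% of cases, 14.1% and 29.3% had another within 10 kb and 17.1% and 87.3% met one of the other tissue.

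A low score set at under 200 gave 45.6% in embryo. Within 100 kb, 35.0% and 40.5% had another, and with lengths within 2 bp 99.4% and 79.8% shared theirs. Outside the chromosome 6 cluster, median lengths were 700 and 623.5 bp and 92.9% and 17.4% shared theirs. In embryo 7.59% had another within 10 kb and 6.03% met a narrow strong peak of endosperm, and chromosome 1 held 16.8% of the endosperm peaks. Both other overlap rules moved no value. The limits set by depth were not computed, since the deposited lists hold no read numbers.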
